A study of Mus musculus with 8 samples.

Results

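The genes described here encode the cytosolic aminoacyl-tRNA synthetases, the enzymes of serine, asparagine, proline and one-carbon synthesis, and targets of the amino acid stress response. 36 gene symbols were named for these roles after the differences between the groups compared here were known, and from them genes were selected on their level, a mean across the 8 libraries not under 1 FPKM. FPKM scales fragments to transcript length and library size, so its levels can be compared between genes. The threshold was met by 34 of the 36 symbols and by 12858 of the 24860 genes listed. Because the symbols were chosen by their differences in the same libraries, the differences and p-values of these genes are given as descriptions. Mars has no row under that symbol, and the table lists methionyl-tRNA synthetase as Mars1, which is given beside the others and not counted among them. Pycr1, which makes proline from pyrroline-5-carboxylate, was just outside the threshold with a mean of 0.995 FPKM. The 2 genes nearest above it were Slc7a11 with a mean of 1.74 FPKM and Trib3 with 2.28 FPKM.

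RNA sequencing was done on mouse retina from 2 groups of 4 libraries each. The first group is labelled AAV2-shCX36, an adeno-associated virus of serotype 2 with a short hairpin RNA against connexin 36, the gap junction protein of retinal neurons. The second is labelled AAV2-scramble, the same kind of vector with a control hairpin. The labels give retina as tissue and retinal ganglion cells as cell type for all 8 libraries. They give no strain, age, injury, time after injection, promoter of the hairpin or sorting step, and do not say which animals entered which library. The p-values therefore reflect variation among 4 libraries per group, which may be technical.

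Aminoacyl-tRNA synthetases load each amino acid onto its transfer RNA, and the cytosolic enzymes supply translation outside mitochondria. When an amino acid runs short, uncharged transfer RNA activates the kinase GCN2 (gene Eif2ak4), which phosphorylates the initiation factor eIF2α and favours translation of the transcription factor ATF4. ATF4 binds amino acid response elements and raises many synthetase genes, asparagine synthetase, serine synthesis enzymes and amino acid transporters. Endoplasmic reticulum stress through PERK (Eif2ak3) and double-stranded RNA through PKR (Eif2ak2) converge on the same step. In the retina, glutamine, serine and glycine metabolism is shared between neurons and Müller glia, and de novo serine synthesis is known chiefly from the glia.

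The core letters of that response element, TGATGNAA on either strand, were searched in promoter windows of 250 bases before to 50 bases after each RefSeq start site (GRCm38.p6). Of the 34 genes 26 matched a window by symbol, and Cars, Hars, Lars, Nars, Rars, Vars, Wars and Slc7a5 did not. The core stood in a window of 10 of these 26 genes (38.5%), against 267 of the 10232 genes over the same level threshold that matched (2.61%), and in 3.97% of all 32851 windows. The 10 genes were Aars, Gars, Iars, Tars, Yars, Asns, Slc7a11, Chac1, Trib3 and Pck2. Because symbols were named as targets of this response, a high share follows in part from the naming, and nothing is read from it. A match of letters is a description and does not show binding. Matches that lay before the start site in Chac1, Pck2, Asns, Slc7a11, Gars and Tars are printed next as up to 30 bases on the strand of the gene, 5′ to 3′, with the 8 letters of the core in capitals, because they are the sequence that these genes have in common; where the core reads on the opposite strand the capitals show its reverse complement. In Trib3, Yars and Iars the match lay after the start site and is not printed.
Chac1: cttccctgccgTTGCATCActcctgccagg
Pck2: agccttcaaagTTACATCAgtatcttacag
Asns: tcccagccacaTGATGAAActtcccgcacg
Slc7a11, upstream copy: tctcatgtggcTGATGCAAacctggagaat
Slc7a11, downstream copy: acctggagaatTTGCATCAtcatgcagccc
Gars: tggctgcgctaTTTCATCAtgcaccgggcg
Tars: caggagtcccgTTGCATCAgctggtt
The Chac1 stretch is chr2:119351038-119351067 and the Pck2 stretch chr14:55540152-55540181, both on the plus strand. Asns is at chr6:7693214-7693243 and Tars at chr15:11399659-11399684, both on the minus strand. The Slc7a11 stretches are chr3:50443661-50443690 and chr3:50443642-50443671 on the minus strand, and Gars is at chr6:55037960-55037989 on the plus strand.

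The libraries were of similar depth, with about 35900000 to 39000000 counted fragments as estimated from the spacing of low values. Gjd2, the gene of connexin 36, had 17.0, 14.0, 14.6 and 16.6 FPKM in AAV2-shCX36 libraries 1 to 4, against 38.7, 35.9, 17.4 and 18.2 FPKM in AAV2-scramble libraries 1 to 4, without overlap and with an adjusted p of 0.148 in limma. The 2 lower control values lay close to the AAV2-shCX36 values. The AAV2-scramble libraries stood apart from one another: the summed FPKM of 6 oligodendrocyte markers was 52.0 and 160 in AAV2-scramble 1 and 2 but 11.2 and 11.5 in 3 and 4, and 10.6 to 11.9 in AAV2-shCX36. All 10 ganglion cell markers were present, summed at 2684 to 2894 FPKM in AAV2-shCX36 and 1616 to 2795 FPKM in AAV2-scramble. Rod markers were also present, at 748 to 1086 FPKM in AAV2-shCX36 and 1158 to 1724 FPKM in AAV2-scramble, so the libraries hold transcripts of other retinal cells. In such bulk libraries fewer cells of a type and less RNA per cell cannot be told apart.

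Of the 34 genes, 33 had a higher mean log2 level in AAV2-shCX36 and 1, Farsa, a lower one. The limma test, adjusted over all 12858 genes by Benjamini-Hochberg, called 6 of them higher at the 0.05 threshold and none lower, and at an unadjusted p under 0.05 none was lower either. The 6 were Wars and Cars among the synthetases, Phgdh and Mthfd2 among the synthesis enzymes, and Chac1 and Pck2. Over all genes tested 4.76% were called, 2.24% higher and 2.52% lower, and the 6 are 17.6% of the 34. Nothing is read from that share, since this comparison chose the list. The median log2 difference was 0.22 over the 34 genes and 0.01 over all genes, and 24 of the 34 were higher at an unadjusted p under 0.05, where 12.3% of all genes were. In 11 genes every AAV2-shCX36 library lay above every AAV2-scramble library, and in none did every one lie lower; over all genes 8.85% were separated upward and 7.05% downward.

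**Figure D1:**
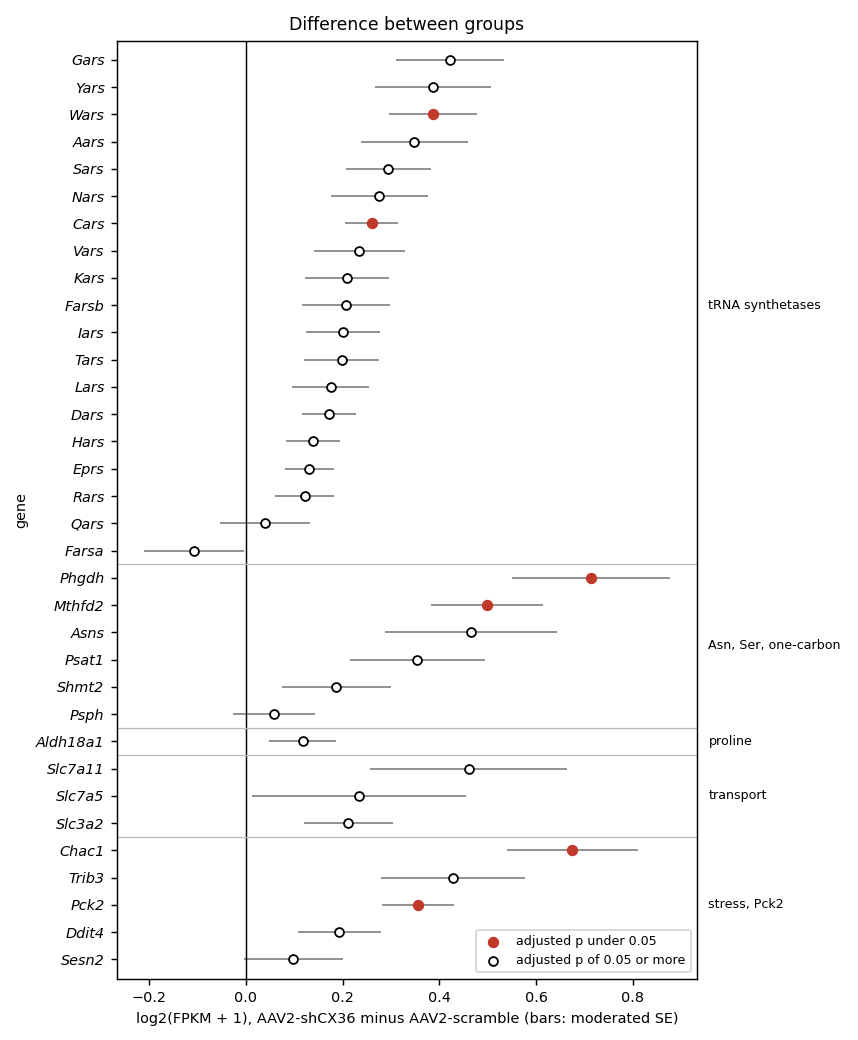
Difference of log2(FPKM + 1), AAV2-shCX36 minus AAV2-scramble, for the 34 genes by role, with the moderated standard error as bars (4 libraries per group). Filled points mark the 6 genes with an adjusted p under 0.05. All points but Farsa lie to the right of 0, from 0.04 for Qars to 0.71 for Phgdh.

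The 6 calls depended on single libraries. Leaving out AAV2-scramble 2, or whichever AAV2-shCX36 library, left none past the threshold, with 1.33% to 3.19% of all genes called. Without AAV2-scramble 1, 1 passed (Chac1), with 3.69% of all genes called. Without AAV2-scramble 3, 2 passed (Chac1 and Mthfd2), with 1.88% of all genes called. Without AAV2-scramble 4, 11 passed, with 9.04% of all genes called. At an unadjusted p under 0.05 13 to 24 of the 34 genes were higher in these 8 omissions. The median difference of the 34 genes stayed between 0.21 and 0.26 in these omissions, in libraries whose differences had chosen the list. In alternatives chosen after seeing the data, 3 genes passed without AAV2-scramble 1 and 2 (Chac1, Mthfd2 and Ddit4), with a median of 0.15 and 7.33% of all genes called. Without AAV2-scramble 3 and 4, 18 passed higher and Farsa passed lower, with a median of 0.31 and 26.8% of all genes called. Without AAV2-shCX36 1 and 4 none passed, with 9 higher at an unadjusted p under 0.05, a median of 0.20 and 0.824% of all genes called.

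The libraries differed in their level over the 34 genes. The median deviation of the 34 genes from their own 8-library mean on the log2(FPKM + 1) scale was 0.11, 0.07, 0.12 and 0.18 in AAV2-shCX36 1 to 4, against -0.16, -0.23, -0.08 and 0.02 in AAV2-scramble 1 to 4. AAV2-scramble 2 was the lowest of all 8 libraries for 16 of the 34 genes and AAV2-scramble 1 for 8, while AAV2-shCX36 4 was the highest for 17. The same median over all tested genes lay between -0.03 and 0.03 in every library. AAV2-scramble 4 was thus the control nearest to the AAV2-shCX36 libraries, and AAV2-scramble 2 the farthest.

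**Figure D2:**
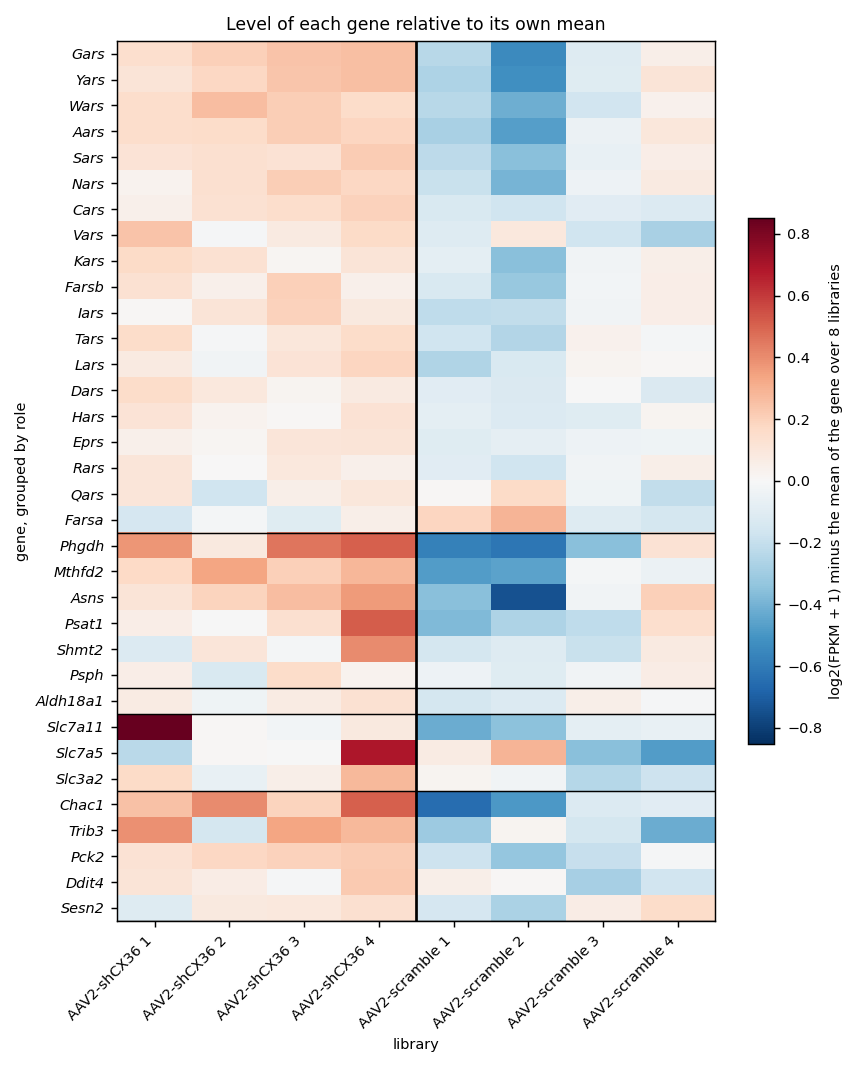
Heat map of log2(FPKM + 1) minus the mean of each gene over the 8 libraries, with the 34 genes down the page by role and the AAV2-shCX36 libraries left of the line. Rows are red in most AAV2-shCX36 libraries, and AAV2-scramble 1 and 2 hold most of the deepest blue, whereas Farsa runs the other way.

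The summed ganglion cell markers and the summed synthetases followed the same order among the controls. The 19 synthetases summed to 870, 884, 908 and 916 FPKM in AAV2-shCX36 1 to 4, against 718, 655, 776 and 832 FPKM in AAV2-scramble 1 to 4. The 10 ganglion cell markers summed to 2684, 2894, 2840 and 2821 FPKM in AAV2-shCX36 1 to 4, against 2123, 1616, 2484 and 2795 FPKM in AAV2-scramble 1 to 4. In both sums AAV2-scramble 2 was lowest, followed by 1, 3 and 4, and the AAV2-shCX36 libraries lay above AAV2-scramble 3. None of the 10 ganglion cell markers passed over all genes, 3 were higher at an unadjusted p under 0.05, and their median log2 difference was 0.31. The log2 difference was above 0 in 9 of them and -0.03 in Isl1. Isl1 did not keep the order of the sum, with 44.6, 40.5, 17.6 and 20.6 FPKM in AAV2-scramble 1 to 4. The 8 Müller glia markers summed to 266 to 428 FPKM in AAV2-shCX36 and 527 to 853 FPKM in AAV2-scramble, with 5 of 8 falling. The 8 microglia and macrophage markers summed to 158, 152, 156 and 241 FPKM in AAV2-shCX36 1 to 4, against 568, 553, 292 and 123 FPKM in AAV2-scramble 1 to 4. All 8 had a log2 difference below 0 (median -0.93) and 1 of them, P2ry12, fell (log2 difference -2.10, adjusted p = 0.0302 in limma). AAV2-scramble 1 and 2, the controls lowest for most of the 34 genes, held the highest microglia sums. The 10 interferon response genes summed to 458 to 818 FPKM in AAV2-shCX36 and 56.7 to 202 FPKM in AAV2-scramble, with all 9 tested ones rising and Ido1 under 1 FPKM in every library. The part of these cell markers and interferon genes in the differences of the amino acid genes was not tested.

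**Figure D3:**
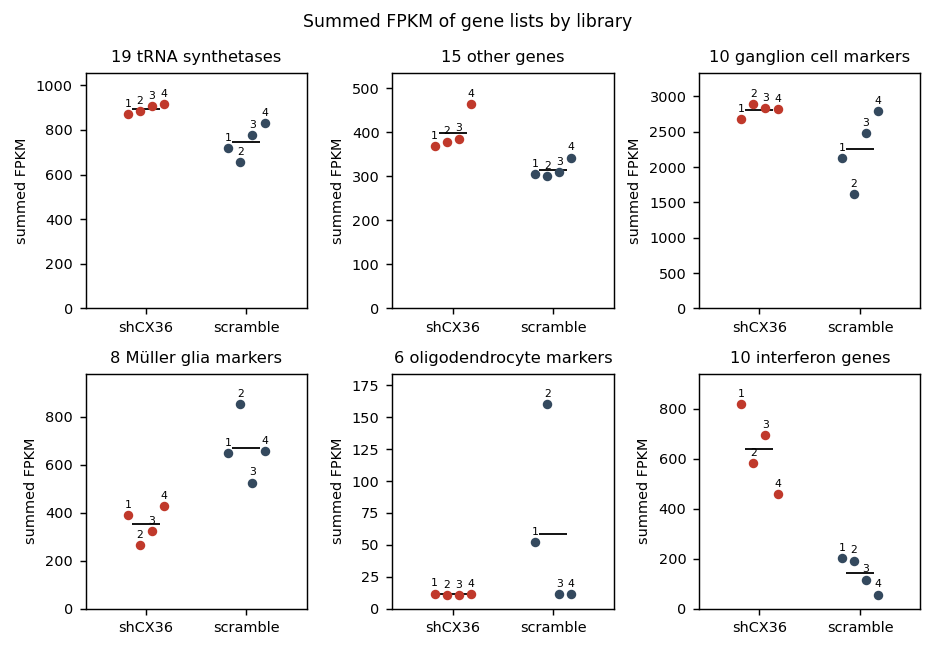
Summed FPKM of 6 gene lists in each library, numbered by replicate, with the group mean as a bar. The synthetases lie at 870 to 916 FPKM in AAV2-shCX36 and 655 to 832 FPKM in AAV2-scramble, and the ganglion cell markers place the 4 controls in the same order as the synthetases.

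The 19 synthetases ranged in mean level from 8.64 FPKM (Vars, valyl-tRNA synthetase) to 139 FPKM (Nars, asparaginyl-tRNA synthetase). 2 rose, 17 did not pass, and 15 were higher at an unadjusted p under 0.05. Their median log2 difference was 0.21.

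Wars, tryptophanyl-tRNA synthetase (GRCm38 chromosome 12, 108860030 to 108894174, minus strand), had 65.0, 70.1, 67.5 and 65.1 FPKM in AAV2-shCX36 1 to 4, against 49.5, 43.5, 52.1 and 60.0 FPKM in AAV2-scramble 1 to 4. Every AAV2-shCX36 library lay above every control, and AAV2-scramble 4 was the nearest. Wars rose by a log2 difference of 0.39 ± 0.09 (SE, n = 4 each), with an adjusted p of 0.0448 in limma. It is the one cytosolic synthetase widely known to be induced by interferon gamma in human cells, and the interferon sums given above separate the groups in the same direction. Among the AAV2-shCX36 libraries Wars was highest in library 2 and nearly equal in libraries 1 and 4, where the interferon sum was highest and lowest. The part of interferon in the Wars difference was not tested.

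Cars, cysteinyl-tRNA synthetase (chromosome 7, 143557230 to 143600090, minus strand), had 21.5, 23.0, 23.3 and 24.1 FPKM in AAV2-shCX36 1 to 4, against 18.99, 18.4, 19.4 and 19.2 FPKM in AAV2-scramble 1 to 4. The groups did not overlap, and the 4 controls lay closer together than for Wars. Cars rose by a log2 difference of 0.26 ± 0.05 (SE, n = 4 each; adjusted p = 0.0321 in limma). Nars, the most abundant synthetase, had 141, 151, 160 and 156 FPKM in AAV2-shCX36 1 to 4, against 121, 104, 134 and 146 FPKM in AAV2-scramble 1 to 4. Its groups overlapped, since AAV2-scramble 4 lay above AAV2-shCX36 1, and its log2 difference was 0.28 (adjusted p = 0.153 in limma).

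The abundant synthetases had the larger differences on the log2(FPKM + 1) scale. 6 had means of at least 50 FPKM (Nars, Gars, Sars, Yars, Aars and Wars, at 59.1 to 139 FPKM), and their log2 differences ran from 0.28 to 0.42. The other 13, at 8.64 to 38.9 FPKM, had log2 differences of -0.11 to 0.26. This split at 50 FPKM was chosen after the values were seen, and it was not clean on every scale. In mean FPKM Cars was 20.9% higher in AAV2-shCX36 and Nars 20.5%. With quantile normalization the log2 differences were 0.25 for Cars and 0.23 for Nars. Gars, glycyl-tRNA synthetase, averaged 98.7 ± 3.59 FPKM in AAV2-shCX36 and 74.3 ± 12.5 FPKM in AAV2-scramble (SD, n = 4 each), the largest log2 difference among the 19 at 0.42, with an adjusted p of 0.0686 in limma. Yars (tyrosyl), Aars (alanyl) and Sars (seryl) had log2 differences of 0.39, 0.35 and 0.29 (limma adjusted p = 0.106, 0.112 and 0.0941). Gars, Aars and Sars had no overlap between groups, whereas in Yars AAV2-scramble 4 lay just above AAV2-shCX36 1. Aars shares 1326 annotated exon bases with Exosc6 on the same strand, so some of its fragments could belong to either gene.

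The remaining synthetases had smaller differences. Dars (aspartyl) and Eprs, which carries glutamyl- and prolyl-tRNA synthetase in 1 chain, had no overlap between groups at log2 differences of 0.17 and 0.13 (adjusted p = 0.120 and 0.168 in limma). Vars, Kars (lysyl), Iars (isoleucyl), Tars (threonyl), Lars (leucyl), Hars (histidyl), Rars (arginyl) and Qars (glutaminyl) overlapped between groups, with log2 differences between 0.04 for Qars and 0.23 for Vars. The Qars difference turned negative without AAV2-scramble 3 and 4 (-0.067), without AAV2-shCX36 1 and 4 (-0.041) and without AAV2-scramble 4 alone (-0.025). Hars and its mitochondrial neighbour Hars2 share 195 exon bases on opposite strands, and their fragments could be mixed if counting ignored strand, a setting not stated in the sources used here. Opposite-strand exon overlaps of the same kind were annotated for Cars (211 bases with the pseudogene Gm15580) and Pck2 (53 bases with Gm10876). Psph (452 bases with Cct6a), Farsb (248 bases with Sgpp2) and Aars (77 bases with Gm24103) also had them. So did Shmt2 (32 bases with Ndufa4l2) and Yars (30 bases with C77080). Pathway genes with such overlaps included Aimp1 (163 bases with Tbck), Eif2ak2 (174 bases with Gm26637) and Eif2ak3 (485 bases with Gm43292). Atf5 shared 82 bases with Nup62 and Gjd2 57 bases with A530058N18Rik, also on opposite strands. Methionyl-tRNA synthetase, annotated as Mars, shared 68 bases with Ddit3 on the opposite strand. Ddit3 had no single annotated position, so its own overlaps were not searched.

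The 2 subunits of phenylalanyl-tRNA synthetase differed in sign. Farsa, the alpha subunit, had 24.9, 27.3, 25.8 and 28.7 FPKM in AAV2-shCX36 1 to 4, against 31.6, 34.1, 25.6 and 24.9 FPKM in AAV2-scramble 1 to 4. Farsb, the beta subunit, averaged 11.3 ± 0.67 FPKM in AAV2-shCX36 and 9.69 ± 1.19 FPKM in AAV2-scramble (SD, n = 4 each). For Farsa only AAV2-scramble 1 and 2 lay above the AAV2-shCX36 range, the same 2 libraries that were lowest for most synthetases. The log2 differences were -0.11 for Farsa and 0.21 for Farsb (limma adjusted p = 0.574 and 0.216), and that of Farsa was 0.075 without AAV2-scramble 1 and 2. Mars1, methionyl-tRNA synthetase, had 27.0, 26.9, 28.8 and 30.9 FPKM in AAV2-shCX36 1 to 4, against 22.3, 24.7, 22.2 and 24.3 FPKM in AAV2-scramble 1 to 4, without overlap (log2 difference 0.27, adjusted p = 0.0529 in limma).

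The synthetases with a response element core in the promoter window, Aars, Gars, Iars, Tars and Yars, had log2 differences of 0.20 to 0.42 with a median of 0.35. The 7 matched synthetases without it, Dars, Eprs, Farsa, Farsb, Kars, Qars and Sars, had -0.11 to 0.29 with a median of 0.17. The 2 ranges overlapped. Among the other genes, the 5 with the core had log2 differences of 0.36 to 0.67 with a median of 0.46, and the 9 without it 0.06 to 0.71 with a median of 0.19. Phgdh and Mthfd2, which rose, had no core in this window. Wars and Cars, which also rose, matched no window and are in neither group. The list was chosen by these same differences, and the part of the core in them was not tested.

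Of the 6 genes of asparagine, serine and one-carbon synthesis, Phgdh and Mthfd2 rose, 4 did not pass, and all 6 had a log2 difference above 0. The serine pathway starts from the glycolytic intermediate 3-phosphoglycerate with Phgdh, continues with the aminotransferase Psat1 and ends with the phosphatase Psph.

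Phgdh (chromosome 3, 98313170 to 98339990, minus strand), phosphoglycerate dehydrogenase, had 26.9, 21.8, 28.5 and 29.7 FPKM in AAV2-shCX36 1 to 4, against 13.4, 13.1, 15.8 and 22.4 FPKM in AAV2-scramble 1 to 4. AAV2-scramble 4 lay above AAV2-shCX36 2, and the other controls lay below every AAV2-shCX36 library. Phgdh rose by a log2 difference of 0.71 ± 0.16 (SE, n = 4 each; adjusted p = 0.0434 in limma), the largest of the 34. Serine synthesis is known chiefly from glia, and the summed Müller markers were lower in AAV2-shCX36, as given above. Which cells held the Phgdh transcripts was not measured, and the part of cell composition in this difference was not tested. Psat1 averaged 21.9 ± 3.96 FPKM in AAV2-shCX36 and 16.9 ± 2.95 FPKM in AAV2-scramble, and Psph 4.71 ± 0.465 FPKM in AAV2-shCX36 and 4.47 ± 0.267 FPKM in AAV2-scramble (SD, n = 4 each). Their log2 differences were 0.35 and 0.06 (adjusted p = 0.179 and 0.726 in limma), so the values were smaller at each later step of the pathway; the steps were not tested against each other.

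Mthfd2 (chromosome 6, 83305691 to 83325908, minus strand), a mitochondrial folate dehydrogenase and cyclohydrolase, had 19.1, 21.6, 19.6 and 20.8 FPKM in AAV2-shCX36 1 to 4, against 11.9, 12.1, 16.7 and 16.3 FPKM in AAV2-scramble 1 to 4. The groups did not overlap, and AAV2-scramble 1 and 2 were the lowest. Mthfd2 rose by a log2 difference of 0.50 ± 0.12 (SE, n = 4 each; adjusted p = 0.0442 in limma). Shmt2, the mitochondrial serine hydroxymethyltransferase that feeds the same folate pool, averaged 28.2 ± 4.71 FPKM in AAV2-shCX36 and 24.4 ± 2.13 FPKM in AAV2-scramble (SD, n = 4 each; log2 difference 0.19, adjusted p = 0.351 in limma). Its groups overlapped, with AAV2-shCX36 4 the highest library at 34.8 FPKM.

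Asns, asparagine synthetase and the classic amino acid response gene, had 85.2, 90.2, 94.8 and 102 FPKM in AAV2-shCX36 1 to 4, against 61.4, 46.6, 77.2 and 90.8 FPKM in AAV2-scramble 1 to 4. AAV2-scramble 4 lay within the AAV2-shCX36 range. The log2 difference was 0.46 ± 0.18 (SE, n = 4 each), with an adjusted p of 0.168 in limma. It was 0.15 when AAV2-scramble 1 and 2 were left out and 0.78 when only those 2 controls were kept.

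**Figure D4:**
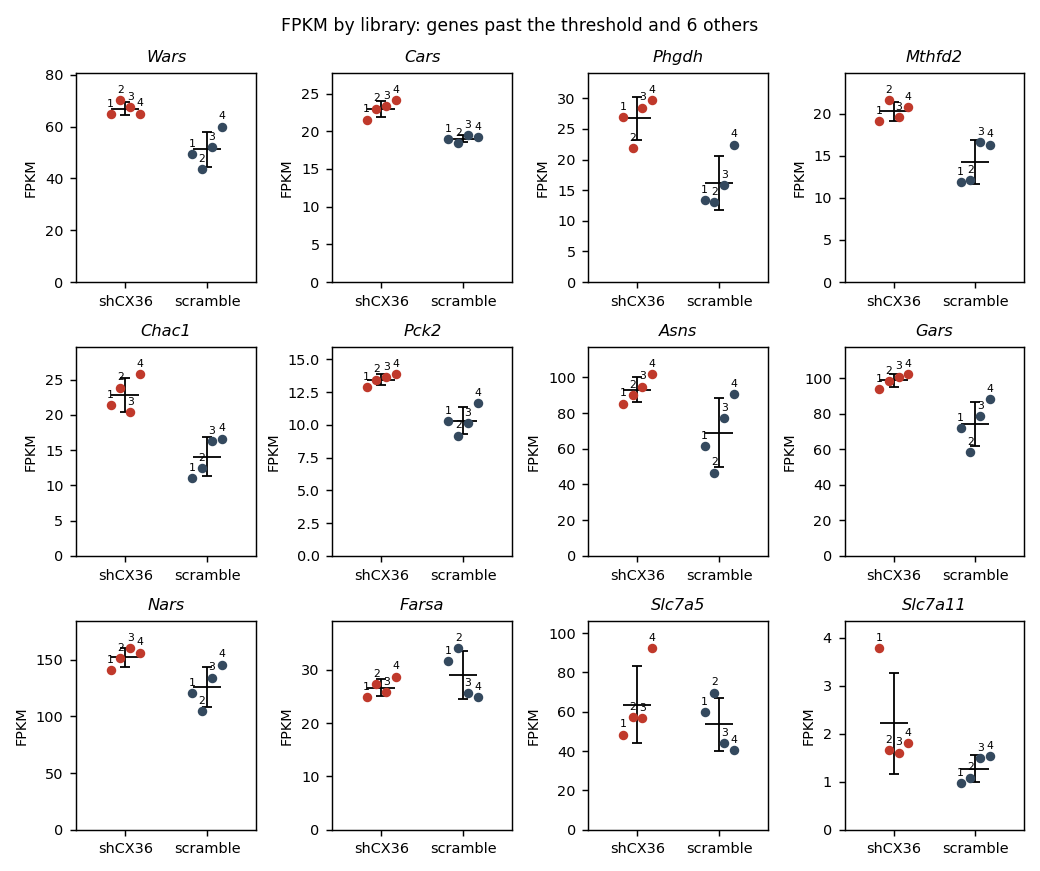
FPKM of the 6 genes that rose (Wars, Cars, Phgdh, Mthfd2, Chac1 and Pck2) and of Asns, Gars, Nars, Farsa, Slc7a5 and Slc7a11 in each library, numbered by replicate, with the group mean and SD (4 libraries each). For Asns, Gars and Nars the controls spread from AAV2-scramble 2 at the bottom to AAV2-scramble 4 near the AAV2-shCX36 libraries.

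The proline pathway had 1 gene above the threshold. Aldh18a1, which makes pyrroline-5-carboxylate from glutamate, had 11.8, 10.9, 11.9 and 12.4 FPKM in AAV2-shCX36 1 to 4, against 10.01, 10.3, 11.6 and 11.1 FPKM in AAV2-scramble 1 to 4. The groups overlapped and the log2 difference was 0.12 (adjusted p = 0.348 in limma). Pycr1, under the threshold and not tested, had 1.43, 1.16, 1.69 and 0.90 FPKM in AAV2-shCX36 1 to 4, against 0.32, 0.54, 0.59 and 1.33 FPKM in AAV2-scramble 1 to 4. AAV2-scramble 4 was the control that reached into the AAV2-shCX36 range.

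None of the 3 amino acid transport genes passed in limma over all genes, and 2 were higher at an unadjusted p under 0.05. Slc3a2 is the heavy chain that pairs with Slc7a5 to import large neutral amino acids and with Slc7a11 to exchange cystine for glutamate. Slc3a2 had 17.2, 14.5, 15.8 and 18.7 FPKM in AAV2-shCX36 1 to 4, against 15.5, 14.95, 12.7 and 13.4 FPKM in AAV2-scramble 1 to 4, with overlap (log2 difference 0.21, adjusted p = 0.214 in limma). Slc7a11 had 3.78, 1.67, 1.605 and 1.81 FPKM in AAV2-shCX36 1 to 4, against 0.97, 1.08, 1.499 and 1.53 FPKM in AAV2-scramble 1 to 4. Its groups did not overlap, and AAV2-shCX36 1 stood far above the rest. The log2 difference was 0.46 ± 0.20 (SE, n = 4 each; adjusted p = 0.219 in limma), and 0.25 without that library. Slc7a5 had 48.4, 57.4, 56.6 and 92.3 FPKM in AAV2-shCX36 1 to 4, against 59.7, 69.8, 44.2 and 40.7 FPKM in AAV2-scramble 1 to 4. AAV2-shCX36 4 stood above the rest, AAV2-scramble 1 and 2 above AAV2-shCX36 1 to 3, and the log2 difference of 0.23 (adjusted p = 0.563 in limma) turned to -0.063 without AAV2-scramble 3 and 4.

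Of the 5 remaining genes, Chac1 and Pck2 rose and Trib3, Sesn2 and Ddit4 did not pass. Chac1 (chromosome 2, 119351229 to 119354381, plus strand), which degrades glutathione and is a target of ATF4, had 21.4, 23.9, 20.4 and 25.8 FPKM in AAV2-shCX36 1 to 4, against 10.99, 12.4, 16.3 and 16.6 FPKM in AAV2-scramble 1 to 4. The groups did not overlap, and AAV2-scramble 1 was the lowest library. Chac1 rose by a log2 difference of 0.67 ± 0.13 (SE, n = 4 each), with an adjusted p of 0.0276 in limma, the smallest of the 34. With 1 library left out its adjusted p ran from 0.0199 to 0.0935, and it passed in 3 of 8 omissions, those of AAV2-scramble 1, 3 or 4.

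Pck2 (chromosome 14, 55540266 to 55551242, plus strand), the mitochondrial phosphoenolpyruvate carboxykinase, had 12.9, 13.5, 13.6 and 13.9 FPKM in AAV2-shCX36 1 to 4, against 10.3, 9.18, 10.2 and 11.7 FPKM in AAV2-scramble 1 to 4. The groups did not overlap, and the AAV2-shCX36 libraries lay close together. Pck2 rose by a log2 difference of 0.36 ± 0.07 (SE, n = 4 each; adjusted p = 0.0324 in limma). With 1 library left out, Wars, Cars, Phgdh and Pck2 each passed only without AAV2-scramble 4 and Mthfd2 only without AAV2-scramble 3 or 4. Their highest adjusted p in these omissions were 0.137 for Wars, 0.103 for Cars, 0.116 for Phgdh, 0.136 for Mthfd2 and 0.103 for Pck2.

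Ddit4, an inhibitor of mTORC1 also induced by glucocorticoids and hypoxia, had 56.4, 54.7, 51.9 and 61.2 FPKM in AAV2-shCX36 1 to 4, against 54.1, 52.7, 42.8 and 46.6 FPKM in AAV2-scramble 1 to 4. The groups overlapped, and here AAV2-scramble 3 and 4, not 1 and 2, were the lowest, with a log2 difference of 0.19 (adjusted p = 0.224 in limma). Trib3, a pseudokinase that restrains ATF4 signalling, averaged 2.77 ± 0.59 FPKM in AAV2-shCX36 and 1.79 ± 0.38 FPKM in AAV2-scramble (SD, n = 4 each; log2 difference 0.43, adjusted p = 0.139 in limma). Sesn2, a leucine sensor upstream of mTORC1, averaged 14.98 ± 1.19 FPKM in AAV2-shCX36 and 14.0 ± 2.0 FPKM in AAV2-scramble (SD, n = 4 each; log2 difference 0.10, adjusted p = 0.608 in limma). Its difference was -0.060 without AAV2-scramble 1 and 2.

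Other genes of the pathway were taken from lists of mitochondrial synthetases, complex scaffolds, eIF2α kinases and phosphatases, transcription factors and further response genes. Of 59 symbols 52 were tested, 4 rose (Aars2, Aimp1, Eif2ak2 and Nupr1), none fell, and the median log2 difference was 0.07. The 4 are 7.69% of the 52, where 2.24% of all genes were called higher and 2.52% lower. At an unadjusted p under 0.05, 10 (19.2%) were higher and 1 lower, where 12.3% of all genes were higher and 10.3% lower. Of 15 mitochondrial synthetases 1 rose, 2 (13.3%) were higher at an unadjusted p under 0.05, and the median was 0.04. It was 0.21 for the 19 cytosolic ones, but those were chosen by these same differences. Nothing is read from the larger cytosolic median, and the difference between these lists was not tested. Among 19 further response genes none passed in limma over all genes, and the median was 0.07. Of these 19, 4 (21.05%) were higher and 1 lower at an unadjusted p under 0.05.

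The 7 regulators described here had log2 differences from -0.01 (Eif2ak4 and Eif2ak3) to 1.48 (Eif2ak2). Atf4 had 184, 187, 190 and 206 FPKM in AAV2-shCX36 1 to 4, against 169, 162, 192 and 204 FPKM in AAV2-scramble 1 to 4, with a log2 difference of 0.08 (adjusted p = 0.603 in limma). Its groups overlapped and its difference was -0.046 without AAV2-scramble 1 and 2; ATF4 is controlled mainly in translation, which RNA levels do not measure. Atf5, a related factor, had 46.8, 48.9, 50.7 and 51.4 FPKM in AAV2-shCX36 1 to 4, against 29.8, 25.3, 36.6 and 44.1 FPKM in AAV2-scramble 1 to 4, with no overlap, a log2 difference of 0.56 and an adjusted p of 0.0657 in limma. Ddit3, encoding CHOP of endoplasmic reticulum stress, had 14.03, 13.7, 14.4 and 13.6 FPKM in AAV2-shCX36 1 to 4, against 12.5, 13.96, 13.4 and 11.3 FPKM in AAV2-scramble 1 to 4. Its groups overlapped (log2 difference 0.12, adjusted p = 0.352 in limma). Nupr1, a stress-induced chromatin protein gene, had 64.4, 33.9, 44.4 and 66.0 FPKM in AAV2-shCX36 1 to 4, against 16.6, 15.004, 28.1 and 22.5 FPKM in AAV2-scramble 1 to 4. Every AAV2-shCX36 library lay above every control, and Nupr1 rose by a log2 difference of 1.29 ± 0.25 (SE, n = 4 each; adjusted p = 0.0233 in limma). With 1 library left out Nupr1 passed in 4 of 8 omissions, those of AAV2-shCX36 2 or AAV2-scramble 2, 3 or 4, with a highest adjusted p of 0.0740 without AAV2-shCX36 1, and it did not pass without a filter on low levels (adjusted p = 0.0641). The lens markers, summed at 148, 13.1, 21.2 and 321 FPKM in AAV2-shCX36 1 to 4 against 0.15 to 15.03 FPKM in AAV2-scramble, were also highest in AAV2-shCX36 1 and 4, and their part in this result was not tested.

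Among the kinases that phosphorylate eIF2α, Eif2ak2 (PKR), itself an interferon-induced gene, had 5.11, 5.88, 7.03 and 3.39 FPKM in AAV2-shCX36 1 to 4, against 1.21, 2.13, 0.92 and 0.84 FPKM in AAV2-scramble 1 to 4. The groups did not overlap, and Eif2ak2 rose by a log2 difference of 1.48 ± 0.22 (SE, n = 4 each; adjusted p = 0.0102 in limma). It passed in all 8 omissions of 1 library, with a highest adjusted p of 0.0427. Eif2ak4 (GCN2) had 7.09, 6.18, 7.38 and 6.996 FPKM in AAV2-shCX36 1 to 4, against 7.12, 8.03, 7.49 and 5.49 FPKM in AAV2-scramble 1 to 4. Eif2ak3 (PERK) had 9.52, 8.17, 7.40 and 8.55 FPKM in AAV2-shCX36 1 to 4, against 9.02, 8.75, 7.83 and 8.29 FPKM in AAV2-scramble 1 to 4. Both kinases overlapped between groups and had a log2 difference of -0.01, with adjusted p of 0.960 and 0.948 in limma. Aimp1, a scaffold of the multi-synthetase complex, had 30.2, 31.5, 31.4 and 32.1 FPKM in AAV2-shCX36 1 to 4, against 25.3, 23.2, 25.9 and 27.7 FPKM in AAV2-scramble 1 to 4 (log2 difference 0.29, adjusted p = 0.0368 in limma). Aars2, the mitochondrial alanyl-tRNA synthetase, had 11.9, 11.9, 12.005 and 11.6 FPKM in AAV2-shCX36 1 to 4, against 9.09, 9.43, 8.76 and 10.4 FPKM in AAV2-scramble 1 to 4 (log2 difference 0.31, adjusted p = 0.0331 in limma). Neither gene had overlapping groups, and both rose. With 1 library left out each passed only without AAV2-scramble 4, with highest adjusted p of 0.107 for Aars2 and 0.111 for Aimp1. Aimp1 also did not pass without a filter (adjusted p = 0.0562), with median-of-ratios scaling (adjusted p = 0.0785) or without a variance trend (adjusted p = 0.0578).

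**Figure D5:**
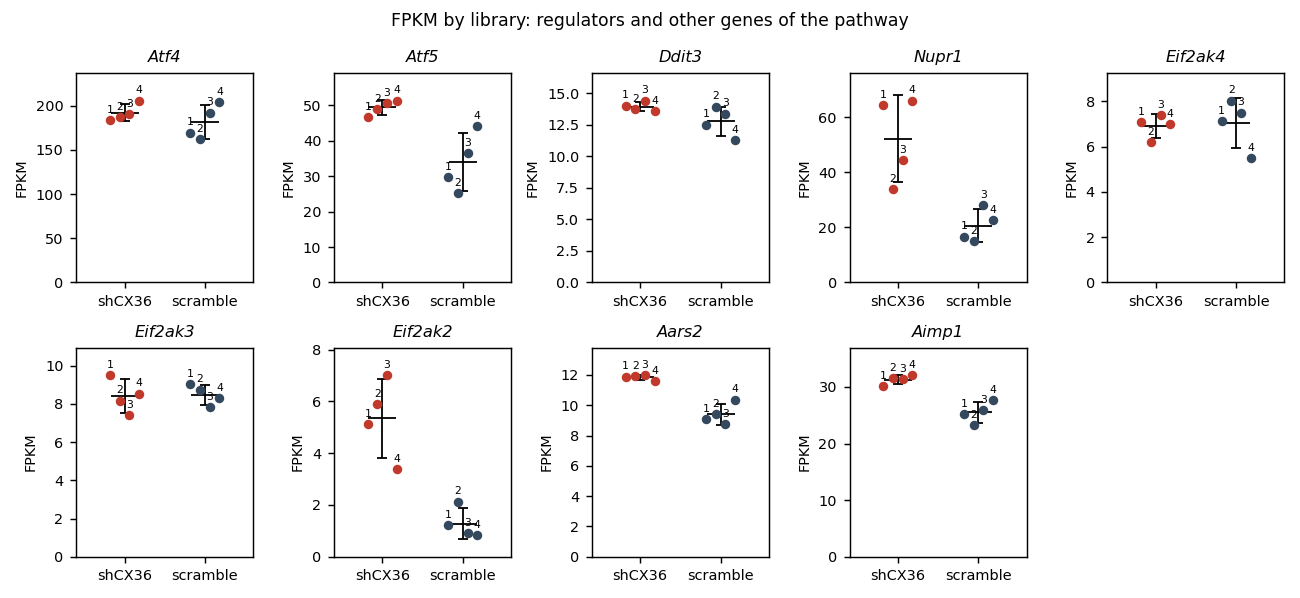
FPKM of Atf4, Atf5, Ddit3, Nupr1, the kinases Eif2ak4, Eif2ak3 and Eif2ak2, Aars2 and Aimp1 in each library, numbered by replicate, with the group mean and SD (4 libraries each). Eif2ak2 and Nupr1 separate the groups, whereas Atf4, Ddit3, Eif2ak4 and Eif2ak3 overlap.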

How the data were processed

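RNA from 8 mouse retina libraries was sequenced as paired-end reads. The submitters' processing notes name fastp, HISAT2, HTSeq, R 3.2.0 and DESeq2 and the builds GRCm38 and mm10, per the labels; the annotation and strand setting are not given in the sources used here. The authors deposited FPKM for 24860 symbols, and every column matched a sample by name. No 2 libraries had identical values. FPKM are not counts, so limma 3.58.1 (R 4.3.3; lmFit, eBayes with a trend) was run on log2-transformed FPKM after adding 1, using 12858 genes whose mean reached 1 FPKM, with Benjamini-Hochberg adjustment over all of them. Differences have AAV2-scramble subtracted from AAV2-shCX36 on this scale, which understates changes of low genes. Depth was estimated from single-exon genes, is approximate, and gives no counting interval.

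The genes and lists were chosen with earlier results of these data known. Genes with values in every library were those called, the 2 with the smallest p and the most abundant one of each role, called pathway genes and 5 fixed regulators. Also given by library were Gjd2 as the target of the hairpin, Pycr1 and Slc7a11 as nearest to the threshold, and Farsa and Mars1, chosen after their values were seen. Positions are from GENCODE vM21 and promoters from RefSeq GRCm38.p6. The sequence of 1 further promoter match is not reported here. The fit was tested on simulated data with 12822 genes, recovering 50% of genes changed 1.5-fold and 72% changed 2-fold, with 10 false calls. Its noise was drawn independently for each gene and library, without the shifts that libraries shared across genes here. Changes under 1.5-fold were not simulated, so it does not cover the smaller differences described here. Alternatives changed the pseudocount, filter, scaling, variance model, weights, replicate block, threshold and libraries. Python 3.11.15, pandas 2.3.3 and matplotlib 3.10.9 were used.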

Additional observations from a re-analysis of the deposited data

Results flagged for a closer look

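In groups of 4 libraries, a value was marked when its gap to the nearest other library was too large a share of the range of its group (above the 95% critical value of Dixon's test), which chance does in about 1 of 20 groups. Slc7a11 in AAV2-shCX36 1, at 3.78 FPKM, was the only value so marked in 88 such groups, with the other AAV2-shCX36 libraries at 1.605 to 1.81 FPKM and a gap of 0.906 of the range.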

How the results depend on the processing

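The 34 genes kept a positive median in every alternative run. The list was chosen by differences in these same libraries, so this follows in part from the choice, and nothing is read from it. The count of 6 rising genes was 1 without a filter (Cars), 1 with median-of-ratios scaling (Chac1) and 2 without a variance trend (Chac1 and Pck2). In these runs, in that order, 1.25%, 4.61% and 3.84% of all genes were called. With quantile normalization 4 rose (Chac1, Gars, Phgdh and Wars), with 5.09% of all genes called. Cars, Mthfd2 and Pck2 did not pass there (adjusted p = 0.0522, 0.0648 and 0.0610 in limma). Leaving out 1 library gave 0 to 11 rising genes, with 101 to 573 genes higher and 70 to 589 lower over the whole table, against 288 and 324. Omissions of 2 libraries were chosen after seeing the data. Without AAV2-scramble 1 and 2 there were 3 rising genes, a median of 0.15 and 554 genes higher over the table. Without AAV2-scramble 3 and 4 there were 18 rising and 1 falling, a median of 0.31, and 1536 higher and 1905 lower. Without AAV2-shCX36 1 and 4 there were 0 rising genes, with 76 higher and 30 lower. The table gave 177 higher and 134 lower without a filter, and 571 and 582 at an adjusted p under 0.1. The cause was not tested.

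Correlations of deviations between same-numbered libraries of the groups were 0.13, -0.30, 0.23 and -0.27. Between differently numbered libraries they ran from -0.24 to 0.27. The labels do not say whether equal numbers share an animal or a run, and these few correlations cannot decide it. With the replicate number as a block 1 of the 34 genes passed (Phgdh), Aars2 and Aimp1 did not pass (adjusted p = 0.133 and 0.107), and over the table there were 107 genes higher and 57 lower.

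Differences that turned sign belonged to genes that did not pass. Without AAV2-scramble 1 and 2 these were Farsa at 0.075, Sesn2 at -0.060, Eif2ak3 at 0.050, Eif2ak4 at 0.090 and Atf4 at -0.046. Without AAV2-scramble 3 and 4 they were Qars at -0.067 and Slc7a5 at -0.063, and without AAV2-shCX36 1 and 4 Qars at -0.041. With 1 library left out Qars ran from -0.025 to 0.10, Eif2ak3 from -0.068 to 0.040 and Eif2ak4 from -0.11 to 0.047.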
